A study of Mus musculus and Homo sapiens with 8 samples.

Results

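Immunoglobulin genes were followed in RNA sequencing libraries of mouse LSK cells, the lineage-negative, Sca-1+ and c-Kit+ fraction of bone marrow that holds stem cells and early progenitors. Members were taken by symbol: every listed gene of the heavy, kappa and lambda loci named as a variable, diversity, joining or constant gene, apart from Ighmbp2, a helicase gene whose symbol only looks alike. The rule gave 192 of 17097 listed genes, made up of 171 variable segments, 11 joining genes and 10 constant genes. The heavy locus held 89 of them, the kappa locus 94 and the lambda locus 9, and 0 diversity genes were among those listed. Igha and Ighe, which the rule also takes, were not among those listed either. In the human tables the same rule gave 2 of 20296 genes, the epsilon pseudogene IGHEP2 and the kappa constant gene IGKC.

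The study removed or lowered ANP32B, a nuclear protein of the acidic ANP32 family with histone chaperone activity. LSK cells came from Anp32b knockout (KO, n = 2) and wild-type (WT, n = 2) C57BL/6 mice, and no other allele or treatment is labelled. KU812, an established chronic myelogenous leukemia line with basophil features, carried a short hairpin RNA against ANP32B (shANP32B, n = 2) or a control hairpin (shNC, n = 2). The labels do not say whether the libraries of a group came from separate animals or cultures, how many animals were pooled, or which exons the knockout removed, so a p-value here measures only how far these libraries spread, which may be technical variation.

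An antibody gene is assembled in a developing B lymphocyte, when the RAG recombinase joins a variable (V) segment, for the heavy chain a diversity segment, and a joining (J) segment. The joined exon is spliced to a constant (C) gene, which is Ighm for IgM and one of the gamma genes after class switching, while the light chain uses either Igkc or a lambda constant gene. Rearranged transcripts are a hallmark of B cells and are most abundant in antibody-secreting plasma cells, and some constant genes and V segments are also transcribed before rearrangement as germline transcripts. The lineage antibodies used to gate LSK cells usually remove cells that carry B lymphocyte surface markers.

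The 3 heavy and 3 kappa segments with the highest mean shares of their loci and the main lambda segments are shown first, because how far they differ from other listed segments bears on how surely reads can be assigned to them. Each line is the last 90 coding bases of the segment, 5′ to 3′ on its coding strand, from the GENCODE M21 transcripts (GRCm38), with capitals at the bases that differ from the nearest listed segment of the same locus.
Ighv11-2: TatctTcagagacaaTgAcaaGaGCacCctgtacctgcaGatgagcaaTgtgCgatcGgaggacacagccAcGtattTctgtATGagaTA
Ighv7-1: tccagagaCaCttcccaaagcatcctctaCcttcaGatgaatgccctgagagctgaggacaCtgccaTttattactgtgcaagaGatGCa
Ighv5-16: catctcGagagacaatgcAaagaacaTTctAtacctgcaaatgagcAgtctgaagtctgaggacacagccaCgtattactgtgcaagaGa
Igkv14-126: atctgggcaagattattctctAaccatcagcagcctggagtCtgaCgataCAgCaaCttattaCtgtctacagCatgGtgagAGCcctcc
Igkv15-103: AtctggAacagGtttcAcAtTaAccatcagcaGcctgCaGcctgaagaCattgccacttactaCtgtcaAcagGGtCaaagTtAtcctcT
Igkv1-88: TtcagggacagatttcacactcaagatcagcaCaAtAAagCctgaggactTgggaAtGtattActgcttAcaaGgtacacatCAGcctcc
Iglv1: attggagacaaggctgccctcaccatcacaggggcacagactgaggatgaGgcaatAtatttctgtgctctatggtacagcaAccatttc
Iglv2: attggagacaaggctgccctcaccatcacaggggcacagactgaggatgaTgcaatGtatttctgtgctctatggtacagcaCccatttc

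Over their whole coding length the 3 leading heavy segments shared 77.1% of bases with Ighv4-1 (Ighv11-2), 89.1% with Ighv7-3 (Ighv7-1) and 86.0% with Ighv5-12 (Ighv5-16). The kappa leaders shared 91.5% with Igkv14-111 (Igkv14-126), 75.5% with Igkv10-94 (Igkv15-103) and 85.1% with Igkv1-110 (Igkv1-88). The lambda segments Iglv1 and Iglv2 shared 96.9% and differed at 3 of the 90 bases printed. Of the segments with a coding sequence, 30 of 79 heavy and 41 of 87 kappa segments had a listed relative at 95% identity or above, and the authors' counting could split reads between such relatives. The heavy sequences printed lie on the minus strand at chr12:114048241-114048330 (Ighv11-2), chr12:113896408-113896497 (Ighv7-1) and chr12:113838526-113838615 (Ighv5-16). The kappa sequences lie at chr6:67896553-67896642 (Igkv14-126, plus), chr6:68437836-68437925 (Igkv15-103, plus) and chr6:68862265-68862354 (Igkv1-88, minus), and the lambda sequences on the minus strand at chr16:19085017-19085106 (Iglv1) and chr16:19260401-19260490 (Iglv2).

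Total counts were 12117196 and 14085985 in the KO libraries and 15683480 and 10549358 in the WT libraries, so a floor of 3 counts stood for 0.191 to 0.284 CPM, which are counts scaled to a common library total without further normalization. Anp32b was listed at 204 and 253 CPM in KO libraries, against 772 and 726 CPM in WT libraries (log2 fold change -1.76, adjusted p = 0.148, edgeR quasi-likelihood test), and ANP32B at 41.2 and 38.7 CPM in shANP32B libraries, against 248 and 277 CPM in shNC libraries. The ribosomal entry Rn18s-rs5 took 0.510% and 0.300% of counts in KO libraries and 0.0293% and 0.851% in WT libraries, so the WT libraries stood farther from each other in this entry than the KO libraries did. The 23 listed mitochondrial genes took 2.13% and 2.32% in KO and 3.05% and 3.11% in WT, higher in both WT libraries than in both KO libraries. The summed level of 13 LSK gate and progenitor markers, Kit, Flt3 and Cd34 among them, was alike in all 4 libraries, at 3502 and 3358 CPM in KO and 3488 and 3233 CPM in WT. Ly6e was the largest part, and some single markers differed more than the sum. Ly6a, the gene of Sca-1, stood at 38.4 and 44.1 CPM in KO and 58.6 and 45.2 CPM in WT. Hlf stood at 243 and 241 CPM in KO and 173 and 196 CPM in WT, and Gata2 was lowest in the first WT library, at 146 CPM. The sum thus does not show that the sorted cells were alike.

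The immunoglobulin genes took 0.528% and 0.652% of all counts in the KO libraries, against 1.44% and 0.319% in the WT libraries. Wilson 95% intervals were 0.524% to 0.532% and 0.648% to 0.656% in KO, and 1.43% to 1.45% and 0.316% to 0.322% in WT. These intervals, like the floors, cover counting error only. Both KO values lay between the WT values, and the spread within WT was wider than the difference between the genotypes. The share averaged 0.590% ± 0.088 in KO libraries and 0.879% ± 0.792 in WT libraries (SD, n = 2 each), a log2 ratio of -0.58 (two-sided exact permutation test, p = 1, where 0.333 is the smallest p that 2 against 2 allows). The WT libraries differed 4.51-fold from each other and the KO libraries 1.24-fold. Without the first WT library the log2 ratio was 0.89, on the other side of 0. In bulk RNA, fewer cells that carry such transcripts and less of the transcript per cell cannot be told apart.

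**Figure D1:**
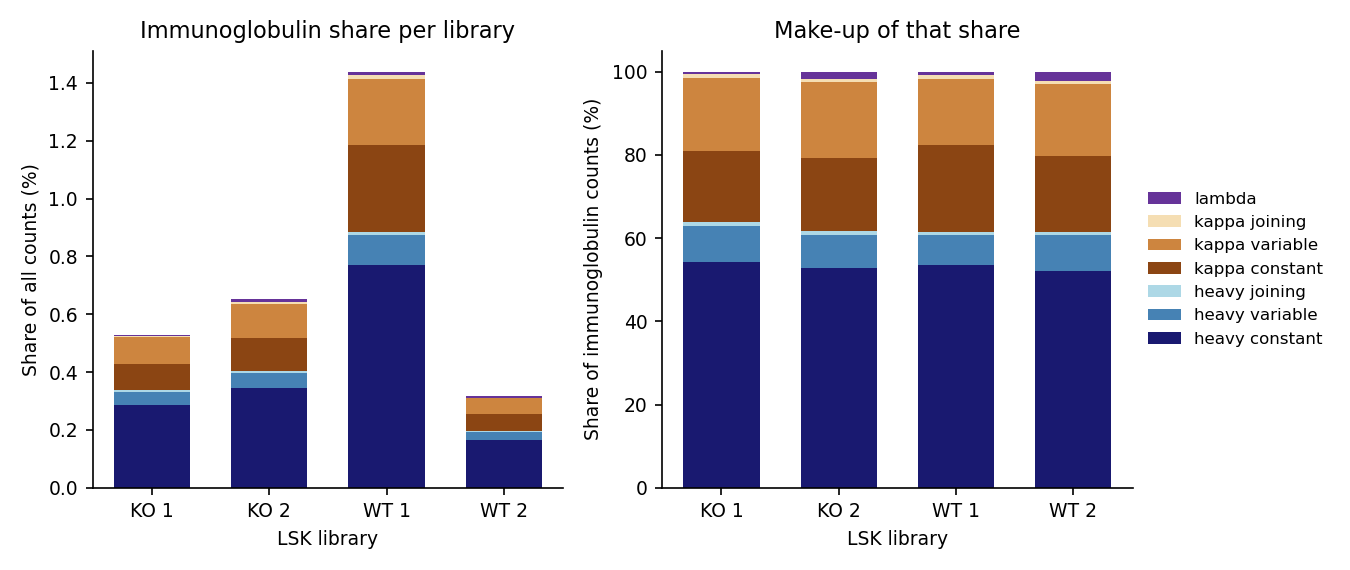
Share of all counts (left, %) and make-up of the immunoglobulin counts (right, %) in each LSK library, KO libraries left of WT libraries, with each colour a locus and gene kind; each bar is 1 library and has no error bar. The total share ran from 0.319% to 1.44%, while the heavy part stayed between 61.5% and 64.0% of it.

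The make-up of these counts was far more even than their amount. Heavy chain genes held 64.0% and 61.8% of the immunoglobulin counts in KO libraries, against 61.5% and 61.6% in WT libraries. Kappa genes held 35.4% and 36.5% in KO, against 37.6% and 36.3% in WT. Lambda genes held 0.688% and 1.68% in KO, against 0.910% and 2.16% in WT, the only locus whose part differed more than 2-fold between libraries of 1 genotype. Averages for heavy genes were 62.9% ± 1.54 in KO and 61.6% ± 0.018 in WT (SD, n = 2 each, two-sided exact permutation p = 0.333, the smallest possible). For kappa genes they were 36.0% ± 0.837 in KO and 36.9% ± 0.902 in WT (two-sided exact permutation p = 0.667, n = 2 each).

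Constant genes held most of the counts in each library. Their part was 71.5% and 70.9% in KO libraries, against 74.8% and 71.2% in WT libraries. Variable segments held 26.6% and 27.3% in KO, against 23.6% and 26.9% in WT, and joining genes 1.87% and 1.88% in KO, against 1.59% and 1.81% in WT. The first WT library, which had the largest immunoglobulin share, thus also had the highest constant and the lowest variable part. Averages for the constant part were 71.2% ± 0.445 in KO and 73.0% ± 2.52 in WT (SD, n = 2 each, two-sided exact permutation p = 0.667).

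Because constant genes and variable segments differ in length, their ratio was also taken per kilobase of exon. For every 100 heavy constant counts there were 16.2 and 15.2 heavy variable counts in KO libraries, against 13.7 and 16.4 in WT libraries. Per kilobase, heavy variable counts stood at 0.808 and 0.749 of the constant counts in KO and at 0.678 and 0.816 in WT. For every 100 Igkc counts there were 102 and 106 kappa variable counts in KO, against 75.4 and 94.9 in WT, or 1.49 and 1.55 per kilobase in KO and 1.10 and 1.38 in WT. The kappa ratio was thus above the heavy ratio in each of the 4 libraries, and both KO values of the kappa ratio lay above both WT values. Both KO libraries also lay above both WT libraries in 22.5% of all genes tested, and the difference in this ratio was not tested. Ighd, Ighm and the gamma genes have 1326 to 2678 exon bases, Igkc has 532, and the median variable segment has 360.

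Among the constant genes Ighm, which encodes the mu chain of IgM, dominated the heavy locus. Ighm (chr12:113418558-113422730, minus strand) had 34060 and 47543 counts in KO libraries, against 117005 and 17183 in WT libraries. That made it the 13th and 9th most counted gene in the KO libraries and the 3rd and 40th in the WT libraries. Ighm made up 98.4% and 98.1% of heavy constant counts in KO, against 96.9% and 98.0% in WT. Its log2 fold change was -0.61 ± 0.57 (SE) and the edgeR adjusted p was 0.986, and both KO levels, 2811 and 3375 CPM, lay between the WT levels of 7460 and 1629 CPM. Ighd, the delta gene of IgD that naive B cells splice from the same transcript as mu, had 12 and 17 counts in KO and 18 and 20 in WT, and did not follow the difference between the WT libraries.

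The gamma genes, which B cells use after class switching to IgG, were a small part of the heavy constant counts. They held 1.60% and 1.91% in KO libraries, against 3.09% and 1.88% in WT libraries, so the second WT library lay between the KO libraries. Ighg2b had 232 and 453 counts in KO, against 1715 and 92 in WT, and Ighg2c had 133 and 375 in KO, against 756 and 90 in WT. Both genes were highest in the first WT library and lowest in the second. Ighg3 had 179 and 100 counts in KO, against 876 and 95 in WT.

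Ighg1 differed most between the genotypes among constant genes. It had 9 and 0 counts in KO libraries, against 385 and 52 in WT libraries, with no overlap between the groups. Both KO libraries also lay below both WT libraries in 11.5% of all genes tested. As a part of all gamma counts Ighg1 was 1.63% and 0.0% in KO, against 10.3% and 15.8% in WT. The log2 fold change of Ighg1 was -5.43 ± 1.10 (SE; edgeR, unadjusted p = 0.00127 and adjusted p = 0.986), which did not pass the threshold of 0.05. The log2 fold change was -3.80 without the first WT library and -6.17 without the second, and in the fit without the second it passed the adjusted threshold. The other gamma genes had log2 fold changes of -1.27 (Ighg2b), -0.66 (Ighg2c) and -1.65 (Ighg3), at an edgeR adjusted p of 0.986 each, and all 3 turned positive, at 1.53, 1.11 and 0.24, without the first WT library.

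Igkc, the single constant gene of the kappa light chain, stood in step with Ighm. Igkc (chr6:70726435-70726966, plus strand) had 10916 and 15967 counts in KO libraries, against 47238 and 6127 in WT libraries, and a log2 fold change of -0.88 ± 0.62 (SE) at an edgeR adjusted p of 0.986. Igkc was 5.19-fold higher in the first WT library than in the second, and Ighm 4.58-fold. The log2 fold change of Igkc was 0.77, and that of Ighm 0.89, without the first WT library.

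The lambda locus was small and followed another order. Iglc1 had 40 and 120 counts in KO libraries, against 308 and 70 in WT libraries, Iglc2 had 103 and 206 in KO, against 267 and 66 in WT, and Iglc3 had 46 and 327 in KO, against 271 and 180 in WT. Iglc3 was listed at 17.3 and 17.1 CPM in the WT libraries, nearly equal where most other members differed several-fold. Their log2 fold changes were -1.21 (Iglc1, SE 0.58), -0.075 (Iglc2, SE 0.47) and -0.38 (Iglc3, SE 0.64), none past the threshold (edgeR, adjusted p from 0.986 to 0.998). There were 57.8 and 24.5 kappa constant counts for each lambda constant count in KO libraries, against 55.8 and 19.4 in WT libraries, so the ratio split the first from the second library of each genotype and not KO from WT.

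Of the lambda variable segments Iglv1 was the most counted in all 4 libraries. It held 65.4% and 70.7% of lambda variable counts in KO libraries, against 70.7% and 84.8% in WT libraries. Iglv2, its near copy, held 34.2% and 25.5% in KO, against 23.8% and 14.7% in WT, a split that rests on how reads shared by both were counted. Iglv3, whose nearest listed relative shares 60.9% of its bases, had 1 and 30 counts in KO and 60 and 2 in WT. Log2 fold changes were -0.67 for Iglv1, -0.15 for Iglv2 and -0.93 for Iglv3, with SEs of 0.48, 0.55 and 1.28 (edgeR, adjusted p from 0.986 to 0.996).

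Counts on variable segments were concentrated on a few of them. Of the 79 heavy segments, 60 and 60 reached 3 counts in KO libraries, against 75 and 56 in WT libraries, and of the 89 kappa segments 73 and 66 did in KO, against 86 and 60 in WT. The 10 most counted segments of each library held 75.3% and 77.9% of heavy variable counts in KO, against 78.3% and 77.9% in WT. For kappa they held 71.4% and 80.4% in KO, against 76.2% and 77.4% in WT. The inverse Simpson index, the number of equally used segments that would give the same evenness, was 10.5 and 9.05 for heavy segments in KO, against 7.39 and 9.89 in WT, and 10.8 and 9.77 for kappa segments in KO, against 8.82 and 8.36 in WT. By this index the evenness of use was like that of 7.39 to 10.5 segments among the 79 heavy segments and of 8.36 to 10.8 among the 89 kappa segments.

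Ighv7-1, Ighv11-2 and Ighv5-16 led the heavy locus by their mean share over the 4 libraries. Ighv11-2, which with Igkv14-126 encodes the anti-phosphatidylcholine antibodies known from mouse B-1 cells, held 19.5% and 21.8% of heavy variable counts in KO libraries, against 20.0% and 18.0% in WT libraries. Ighv7-1 varied more and held 17.7% and 19.1% in KO, against 27.8% and 17.6% in WT. Ighv7-1 is the heavy segment of the classical mouse antibody to phosphorylcholine. Ighv5-16 held 2.77% and 10.6% in KO, against 9.66% and 15.8% in WT, and was thus lowest in the first KO library.

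The other heavy segments of the leading 10 each held under 11% in each library. Ighv9-3 held 6.92% and 3.70% in KO libraries, against 4.40% and 5.14% in WT libraries. Ighv6-3 was the one of the 10 whose KO values, 1.39% and 1.23%, both lay well below its WT values of 5.50% and 5.45%. Ighv8-8 was high in 1 library, with 10.1% and 1.86% in KO, against 0.658% and 0.972% in WT, and Ighv1-53 held 0.533% and 8.44% in KO, against 0.803% and 3.44% in WT. Ighv1-55, Ighv1-9 and Ighv10-1 ranged from 0.243% to 5.99% over the 4 libraries.

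In the kappa locus Igkv14-126, Igkv15-103 and Igkv1-88 led. Igkv14-126 held 20.8% and 19.1% of kappa variable counts in KO libraries, against 18.6% and 17.1% in WT libraries. Igkv15-103 held 17.4% and 15.1% in KO, against 22.4% and 17.3% in WT. Igkv1-88 held 3.25% and 12.3% in KO, against 11.3% and 22.7% in WT, and was, like Ighv5-16, lowest in the first KO library and highest in the second WT library.

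The other kappa segments of the leading 10 had smaller mean shares. Igkv5-39 held 2.24% and 2.39% in KO libraries, against 10.6% and 5.61% in WT libraries. Igkv12-89 stood the other way, with 5.94% and 6.49% in KO, against 2.003% and 0.997% in WT. Igkv6-14 had 58 and 2205 counts in KO, against 19 and 140 in WT, so that 1 library held most of its counts. Igkv4-55 held 1.40% and 5.82% in KO, against 1.44% and 0.206% in WT, and Igkv4-59, Igkv19-93 and Igkv1-135 ranged from 1.23% to 3.65%.

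**Figure D2:**
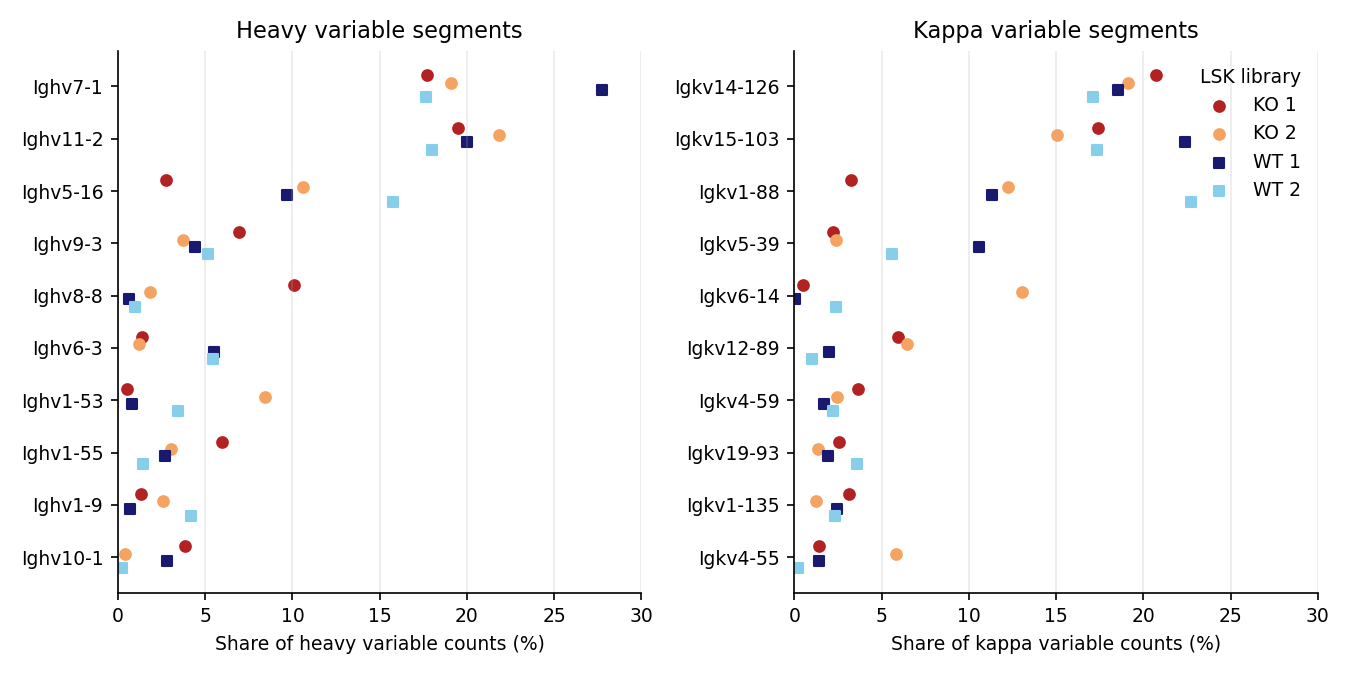
Share of heavy (left) and kappa (right) variable counts held by the 10 segments with the highest mean share (%, x axis), with 1 point per library, circles for KO and squares for WT. Ighv7-1, Ighv11-2, Igkv14-126 and Igkv15-103 held over 15% in each library, while Igkv6-14 reached 13.1% in the second KO library and 2.41% or less in the others.

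The leading heavy and kappa segments had similar shares of their own loci, a likeness noticed after the values were seen and given without a test. The share of Ighv11-2 minus that of Igkv14-126 was -1.25 and 2.71 percentage points in KO libraries, against 1.44 and 0.892 in WT libraries. For Ighv7-1 minus Igkv15-103 it was 0.303 and 4.04 points in KO, against 5.36 and 0.305 in WT. For Ighv5-16 minus Igkv1-88 it was -0.473 and -1.64 points in KO, against -1.65 and -6.95 in WT, while the shares themselves ran from 2.77% to 22.7%. Ighv11-2 had 0.473 and 0.498 counts for each Igkv14-126 count in KO libraries, against 0.501 and 0.521 in WT libraries. For Ighv7-1 over Igkv15-103 this ratio was 0.512 and 0.554 in KO, against 0.577 and 0.504 in WT. For Ighv5-16 over Igkv1-88 it was 0.430 and 0.378 in KO, against 0.398 and 0.344 in WT. All heavy variable counts over all light variable counts gave similar values, 0.493 and 0.417 in KO, against 0.451 and 0.465 in WT. Bulk tables do not pair the chains of a cell.

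The other textbook partners were less counted. Ighv12-3 and Igkv4-91, also known from anti-phosphatidylcholine antibodies of B-1 cells, had 82 and 86 counts (Ighv12-3) and 22 and 150 counts (Igkv4-91) in KO libraries. In WT libraries they had 96 and 15 (Ighv12-3) and 164 and 22 (Igkv4-91). Igkv7-33, the known partner of Ighv7-1 in the phosphorylcholine antibody, had 0 and 0 counts in KO and 30 and 0 in WT, so Ighv7-1 counts were not matched by counts of this partner.

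Grouped by family, the 36 listed Ighv1 segments, the largest family, held 24.1% and 29.0% of heavy variable counts in KO libraries, against 15.3% and 21.3% in WT libraries. The single Ighv11 segment held 19.5% and 21.8% in KO, against 20.0% and 18.0% in WT. The 3 Ighv7 segments held 18.5% and 19.9% in KO, against 28.4% and 18.1% in WT, nearly all of it Ighv7-1. Among kappa families the 25 Igkv4 segments held 9.26% and 12.5% in KO and 6.77% and 7.74% in WT, less than the single Igkv15 segment.

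Along the chromosome the counts lay unevenly. Heavy segments within 1 Mb of the joining genes, 35 of 79, held 23.3% and 34.1% (the nearer 0.5 Mb) and 35.7% and 33.3% (the farther 0.5 Mb) of heavy variable counts in KO libraries. In WT libraries these bins held 41.0% and 39.4% (nearer) and 38.2% and 36.5% (farther). The bin from 1.5 to 2.0 Mb, where Ighv8-8, Ighv1-53 and Ighv1-55 lie, held 21.7% and 19.7% in KO, against 5.72% and 9.41% in WT, and was the heavy bin in which the KO values lay farthest above the WT values. In the kappa locus the bin from 2.5 to 3.0 Mb, where Igkv14-126 lies, held 22.9% and 21.4% in KO and 22.6% and 21.4% in WT.

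**Figure D3:**
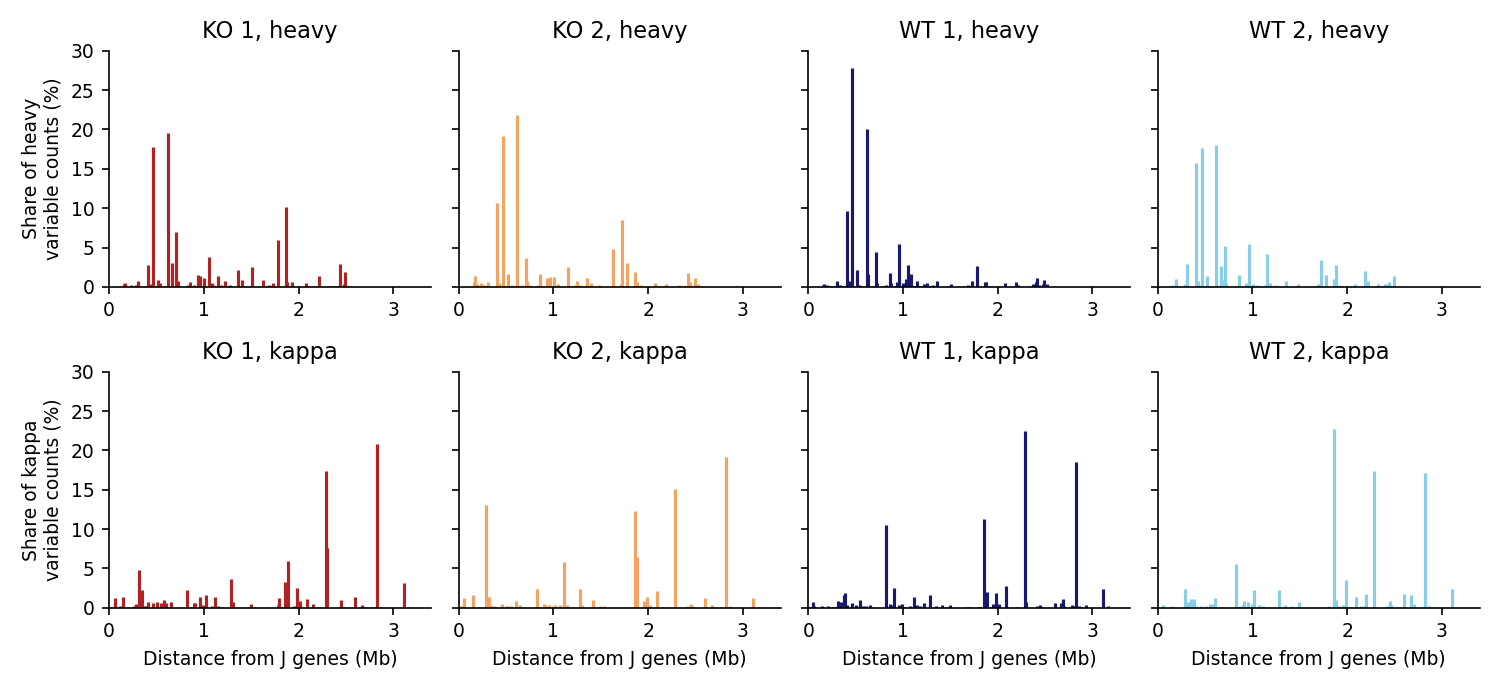
Share of heavy (top) and kappa (bottom) variable counts (%, y axis) of each segment by its distance from the joining genes (Mb, x axis), 1 panel per library, KO libraries left of WT libraries. In each library the tallest heavy line stands under 1 Mb and the tallest kappa line beyond 1.5 Mb.

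Similarity of segment use between libraries was measured with the Morisita-Horn index, where 1 is the same use. For heavy segments it was 0.865 between the KO libraries, 0.916 between the WT libraries and 0.817 to 0.932 across genotypes. For kappa segments it was 0.817 between the KO libraries, 0.907 between the WT libraries and 0.752 to 0.867 across genotypes. Libraries of different genotype were thus as alike as libraries of 1 genotype for heavy segments, with the across-genotype range containing both within-genotype values. The libraries of a genotype still differed beyond the noise of read counting, with a chi-square per degree of freedom of 45.8 (KO heavy), 83.0 (KO kappa), 25.3 (WT heavy) and 48.3 (WT kappa).

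Some segments were counted almost wholly in 1 library. With the limits set after the values were seen, 16 of the 126 segments that summed to at least 50 counts had 80% or more of their summed CPM in 1 library. That library was the first KO library for 1 segment, the second KO library for 2 and the first WT library for 13. Ighv8-2 had 176 counts and Igkv4-58 had 212 counts in the first WT library, and both had 0 in the other 3. The first WT library was also the one with the most immunoglobulin counts and the deepest one.

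Joining genes are shown because each holds the motif that codes for the start of the last framework stretch of the chain. Each line is 1 joining gene, 5′ to 3′ on its coding strand, from the GENCODE M21 transcripts, with the motif in capitals.
Ighj1: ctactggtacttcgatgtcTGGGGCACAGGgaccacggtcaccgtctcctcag
Ighj2: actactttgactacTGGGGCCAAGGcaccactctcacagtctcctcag
Ighj3: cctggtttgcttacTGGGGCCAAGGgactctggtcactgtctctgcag
Ighj4: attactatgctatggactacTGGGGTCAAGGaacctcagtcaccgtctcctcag
Igkj1: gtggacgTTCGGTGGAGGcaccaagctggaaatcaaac
Igkj2: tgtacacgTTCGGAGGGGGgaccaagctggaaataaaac
Igkj4: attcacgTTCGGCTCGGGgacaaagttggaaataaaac
Igkj5: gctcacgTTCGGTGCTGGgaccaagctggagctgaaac

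The motif searched was TGGGGNNNNGG for heavy and TTCGGNNNNGG for kappa and lambda genes, where N is any base. It was found in 4 of 4 heavy, 4 of 4 kappa and 3 of 3 lambda joining genes, and, searched on both strands, in 0 of 169 windows of 54 bases at the ends of variable segments. The heavy genes lie on the minus strand within chr12:113428514-113429833 and the kappa genes on the plus strand within chr6:70722562-70723927.

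Use of the joining genes was similar in all libraries for Ighj1, which held 44.8% and 43.4% of heavy joining counts in KO libraries, against 47.8% and 42.7% in WT libraries. Ighj2 held 21.6% and 36.9% in KO, against 23.5% and 30.3% in WT. Ighj3 and Ighj4 held 7.22% to 20.9% over the 4 libraries. In the kappa locus Igkj1 held 32.2% and 41.6% in KO, against 43.1% and 55.3% in WT, and Igkj2 held 37.0% and 29.6% in KO, against 27.2% and 21.1% in WT. The first KO library was the one in which Igkj2 was counted more than Igkj1. These genes are short and rest on few counts, from 27 to 753 for a heavy joining gene in a library.

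Gene by gene, 145 of the 192 members passed the filter on low counts, all 10 constant genes, all 11 joining genes and 124 of 171 variable segments. Of these 145, 0 passed an adjusted p of 0.05 (edgeR quasi-likelihood test), as did 0.0% of the 14598 genes tested, Anp32b included. At an unadjusted p under 0.05, 10 members (6.90%) were higher in KO, against 2.29% of all genes tested, and 18 (12.4%) were lower, against 2.21% of all genes tested. DESeq2 called 5 of the 153 members to which it gave an adjusted p (3.27%), against 0.104% of all genes with one, 15 in number. The median log2 fold change of the 145 members was -0.39, beside -0.0079 over all genes tested. By kind, the medians were -0.97 over 6 heavy constant genes, -0.25 over 54 heavy variable segments, -0.43 over 67 kappa variable segments and -0.67 over 3 lambda variable segments.

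Both KO libraries lay above both WT libraries in 13 members (8.97%), against 22.5% of all genes tested, and below both in 20 (13.8%), against 11.5%. The share of members above is under the background and that of members below is near it. The first WT library was above the second in 126 of 145 members, and in 11 of 11 joining genes, 9 of 10 constant genes and 106 of 124 variable segments. Between the KO libraries the first was above the second in 64 of 145. The median log2 ratio of the first to the second WT library was 1.64 over the members and -0.032 over all genes tested. Without the first WT library the median log2 fold change of the members was 1.03, and without the second it was -1.20.

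The counts of members past a threshold moved with the WT library left out, in edgeR fits that assume the lone WT library to vary like the KO libraries. Without the first WT library, 58 of 151 members tested were higher in KO at an unadjusted p under 0.05, against 3.9% of all genes tested, and 12 were lower, against 4.74%. Without the second, 15 of 181 were higher, against 10.3% of all genes tested, and 83 were lower, against 10.8%. At an adjusted p under 0.05, 11 members passed without the first WT library, 10 of them higher in KO, against 0.238% of all genes tested. Without the second WT library 66 passed, 61 of them lower in KO, against 5.41% of all genes tested. Without the first KO library 4 of 177 members passed, against 0.0325% of all genes tested, and without the second KO library 0 did.

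**Figure D4:**
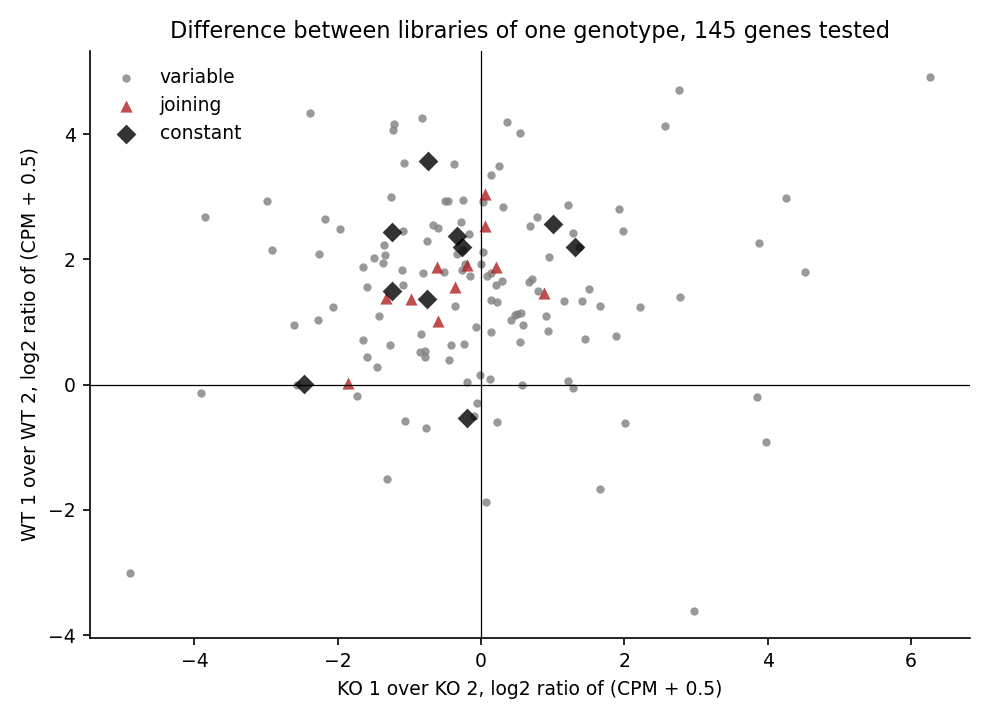
Log2 ratio of the first to the second KO library (x axis) and of the first to the second WT library (y axis), each of CPM + 0.5, for the 145 members tested, 1 point per gene. Of these, 126 lie above 0 on the WT axis, while 64 lie right of 0 on the KO axis.

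The members with the smallest p on the higher side were Ighv1-31, Ighv1-49, Igkv3-10 and Igkv3-5. Ighv1-31 had 49 and 36 counts in KO libraries, against 0 and 0 in WT libraries, so that it was at least 14.2-fold and 8.99-fold higher in KO, taken against a floor of 3 counts in the shallower WT library. Ighv1-49 had 47 and 358 counts in KO, against 0 and 0 in WT, at least 13.6-fold and 89.4-fold higher. Their adjusted p were 0.829 (Ighv1-31) and 0.920 (Ighv1-49, edgeR quasi-likelihood test). Their last 90 coding bases, at chr12:114829264-114829353 and chr12:115055223-115055312 on the minus strand, are shown with capitals where they differ from Ighv1-34 (Ighv1-31) and Ighv1-58 (Ighv1-49).
Ighv1-31: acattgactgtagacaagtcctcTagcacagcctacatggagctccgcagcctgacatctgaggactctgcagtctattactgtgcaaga
Ighv1-49: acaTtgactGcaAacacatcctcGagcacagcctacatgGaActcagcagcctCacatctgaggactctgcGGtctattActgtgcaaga

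Ighv1-31 differed from Ighv1-34 at 1 of these 90 bases and shared 93.2% of its whole coding sequence with it, while Ighv1-49 shared 84.4% with Ighv1-58. Ighv1-34 had 3 and 1 counts in KO libraries and 5 and 4 in WT libraries. Igkv3-10 had 158 and 266 counts in KO, against 82 and 12 in WT, a log2 fold change of 2.22 ± 0.57 (SE) at an edgeR adjusted p of 0.986. Igkv3-5 had 145 and 219 counts in KO, against 93 and 23 in WT, a log2 fold change of 1.68 ± 0.44 (SE) at an edgeR adjusted p of 0.986. Igkv3-10 and Igkv3-5 share 98.3% of their bases, so the split of reads between them is uncertain.

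On the lower side the smallest p belonged to Igkv4-63, Igkv9-120, Igkv1-122 and Ighg1. Igkv4-63 had 2 and 0 counts in KO libraries, against 75 and 22 in WT libraries, a ratio of 0.0206 with an exact 95% counting interval from 0.00246 to 0.0766. Igkv9-120 had 34 and 55 counts in KO, against 225 and 96 in WT, a log2 fold change of -1.85 ± 0.35 (SE). Igkv1-122 had 6 and 3 counts in KO, against 90 and 25 in WT, a log2 fold change of -3.58 ± 0.70 (SE). The groups did not overlap in any of the 3, which were picked by their small p from these same values. Both KO libraries lay below both WT libraries in 11.5% of all genes tested. The adjusted p of the 3 was 0.920 each (edgeR quasi-likelihood test). The members DESeq2 called at an adjusted p under 0.05 were these 3, all lower in KO, and Ighv1-31 and Igkv3-10, both higher.

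Of 12 tested genes of recombination and end joining, which rearrange these genes, 0 passed the adjusted threshold, as did 0.0% of all genes tested, and their median log2 fold change was -0.035. Rag1 and Rag2, the recombinase subunits, had 10 and 16 counts (Rag1) and 15 and 24 counts (Rag2) in KO libraries, against 11 and 14 (Rag1) and 27 and 8 (Rag2) in WT libraries. Dntt, the terminal transferase that adds bases at the junctions, had 1754 and 2424 counts in KO, against 3924 and 1434 in WT. The surrogate light chain gene Vpreb1, which pairs with the mu chain before a light chain is made, had 12 and 15 counts in KO and 12 and 4 in WT. Igll1, its partner, had 4 and 0 in KO and 3 and 6 in WT and did not pass the filter.

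The genes that read or use the antibody product were tested in the same way. Of all 14598 genes tested 0 passed, with a median log2 fold change of -0.0079, so a 0 does not set a list apart. Of 10 B cell receptor partners and signalling genes 0 passed, with a median of 0.0043, and Cd79a, a signalling chain of the receptor, had 62 and 98 counts in KO libraries, against 165 and 32 in WT libraries. Of 12 tested transcription factors of immunoglobulin genes 0 passed, with a median of -0.093. Irf8, a factor of B cells and myeloid progenitors, had the smallest p there, with a log2 fold change of -0.36 (unadjusted p = 0.0472, adjusted p = 0.986, edgeR). Of 7 tested genes of class switching and hypermutation 0 passed, with a median of 0.068. Of 9 tested Fc and antibody receptor genes 0 passed, with a median of -0.44, and Fcer1g, the signalling chain of several Fc receptors, and Fcgr2b, the inhibitory IgG receptor, had log2 fold changes of -0.51 and -0.44 (both adjusted p = 0.986, edgeR).

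Of 12 tested genes of antibody assembly and secretion 0 passed, as did 0.0% of all genes tested. Their median was -0.18, beside -0.0079 over all genes tested. Igj, the gene of the J chain that joins IgM and IgA units into polymers, had 262 and 285 CPM in KO libraries, against 551 and 140 CPM in WT libraries. For every 100 Ighm counts there were 9.32 and 8.44 Igj counts in KO, against 7.39 and 8.58 in WT, so Igj and Ighm stood in a similar ratio in all 4 libraries. Igj was 3.95-fold higher in the first than in the second WT library. Mzb1, a chaperone of IgM, had 61 and 105 counts in KO, against 158 and 27 in WT. Xbp1, a factor of secretory cells, had 1624 and 2154 counts in KO and 3171 and 1287 in WT. Hspa5, the heavy chain binding protein BiP, had 24822 and 30442 counts in KO and 33121 and 29923 in WT. Scaled to library totals, Hspa5 stood at 2048.5 and 2161.2 CPM in KO and 2111.8 and 2836.5 CPM in WT. It was thus highest in the second WT library, unlike Igj and Xbp1.

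Markers of other cell types that the gate could hold are given beside these values, and their part in the results was not tested. The 12 plasma cell markers summed to 654 and 702 CPM in KO libraries, against 1058 and 480 CPM in WT libraries, in the same order over the 4 libraries as the immunoglobulin share. Without Igj the other 11 summed to 392 and 417 CPM in KO, against 507 and 340 CPM in WT. Most plasma cell markers did not keep the order of the immunoglobulin share when taken singly. Sdc1, Tnfrsf13b, Prdm1, Irf4, Slamf7, Edem2 and Cd28 did not keep it, while Igj, Mzb1, Xbp1, Tnfrsf17 and Derl3 did. The 13 mature B cell markers summed to 589 and 737 CPM in KO, against 1083 and 722 CPM in WT. Most of it came from Cd74 and Cd37, which other blood cells also express. This sum did not follow the order of the immunoglobulin share, since the second WT library lay above the first KO library. Cd79b, a B cell receptor partner, did not follow that order either, at 19.1 and 22.9 CPM in KO and 22.8 and 21.2 CPM in WT. Without Cd74, Cd37 and Cd79b the other 10, set apart after the values were seen, summed to 15.2 and 21.9 CPM in KO and 26.5 and 13.1 CPM in WT. Cd79b alone exceeded this sum in all libraries but the first WT library, so the sum depends on leaving Cd79b out.

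Defining B cell markers had few counts. Ms4a1 (CD20) had 5 and 10 counts in KO libraries, against 15 and 6 in WT libraries, and Pax5, the factor that fixes the B cell fate, had 3 and 5 in KO, against 24 and 5 in WT. Sdc1, the plasma cell surface marker CD138, had 304 and 417 counts in KO, against 446 and 197 in WT. Scaled to library totals, Sdc1 was highest in the second KO library, at 25.1 and 29.6 CPM in KO and 28.4 and 18.7 CPM in WT. Tnfrsf17, the plasma cell receptor BCMA, had 7 and 17 counts in KO and 29 and 4 in WT. The 12 pro-B and pre-B cell markers summed to 697 and 756 CPM in KO, against 782 and 591 CPM in WT, and the 13 T cell markers to 53.8 and 56.7 CPM in KO, against 99.9 and 42.1 CPM in WT. Both sums were in the order of the immunoglobulin share. Most of the pro-B and pre-B sum came from Cd24a, which did not follow that order. Cd24a stood at 539 and 569 CPM in KO, against 508 and 445 CPM in WT. Most of the rest came from Dntt, which followed it, at 145 and 172 CPM in KO and 250 and 136 CPM in WT. The 9 neutrophil markers summed to 868 and 755 CPM in KO and 1191 and 1188 CPM in WT, the 8 listed NK cell markers to 95.2 and 125 CPM in KO and 124 and 102 CPM in WT, and the 8 erythroid markers to 41.3 and 68.2 CPM in KO and 48.4 and 47.3 CPM in WT.

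**Figure D5:**
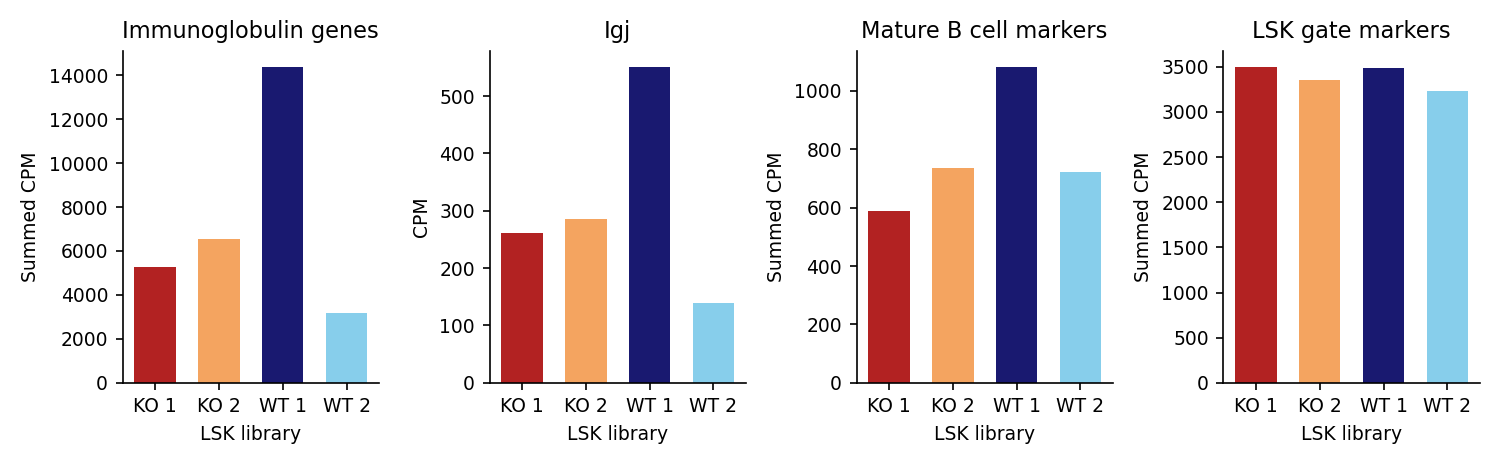
Level (CPM, y axis from 0) of the 192 immunoglobulin genes summed, of Igj, of the 13 mature B cell markers summed and of the 13 LSK gate markers summed in each library, KO libraries left of WT libraries; each bar is 1 library and has no error bar. The first WT library was highest in the first 3 panels, while the LSK gate markers ran from 3233 to 3502 CPM.

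The tables also list locus-wide entries named Igh, Igk and Igl, which the rule does not take. Igh had 20082 and 27814 counts in KO libraries, against 54455 and 11381 in WT libraries, and Igk had 14205 and 19641 in KO, against 56820 and 7691 in WT. Igl had 374 and 1202 counts in KO, against 1795 and 558 in WT. The sources used here do not say how reads that overlap such an entry and a segment were counted. With these entries added the immunoglobulin share was 0.814% and 0.998% in KO libraries, against 2.16% and 0.505% in WT libraries, in the same order as without them. The parts of the loci and the variable to constant ratios above leave them out. For every 100 heavy counts there were 49.1 and 49.0 Igh counts in KO, against 39.2 and 54.9 in WT. For every 100 kappa counts there were 62.8 and 58.5 Igk counts in KO, against 67.0 and 63.0 in WT. The first WT library thus had the lowest Igh and the highest Igk value.

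In KU812 cells the immunoglobulin genes were nearly empty. IGHEP2 had 19 and 19 counts in shANP32B libraries, against 1 and 16 in shNC libraries, and IGKC had 4 and 15 in shANP32B, against 9 and 8 in shNC. Together they were 9.07e-05% and 0.000139% of counts in shANP32B and 3.54e-05% and 9.47e-05% in shNC, of totals between 24416691 and 28209409. IGHEP2 had a log2 fold change of 1.15 ± 0.90 (SE) at an edgeR adjusted p of 0.423, and IGKC did not pass the filter, so 0 of 1 member tested was called, against 16.6% of all genes tested; 0 members were under an unadjusted p of 0.05, and DESeq2 called 0. The lowest immunoglobulin share of an LSK library was 2291 times the highest of a KU812 library. The comparison is between species and gene lists of different size, and it shows only how few such counts the line held.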

How the data were processed

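RNA from LSK and KU812 cells was extracted with Trizol and made into Illumina libraries, per the labels' protocols. Tools named, without roles, are HISAT2, TopHat, Cufflinks and DESeq, with builds GRCm38 and GRCh38, per the submitters' processing notes; the sources used here do not give the counter, its strand setting or its handling of shared reads. The authors deposited 1 table of whole-number counts per gene symbol for each library, not normalized, in which each listed LSK gene summed to 10 or more, per the values. Each experiment was fitted alone with edgeR 4.0.16 in R 4.3.3 (filterByExpr, TMM, quasi-likelihood test, Benjamini-Hochberg over all genes tested, threshold 0.05). The fit was also run on simulated counts drawn for each gene by itself. These held no joint immunoglobulin difference like that between the WT libraries, so the run does not test the fit for such a difference. The SE is the unmoderated log2 coefficient over the square root of F. DESeq2 1.42.0 was an alternative. Shares were compared by exact permutation over libraries. Positions, lengths and sequences come from GENCODE M21 (GRCm38, 1-based), in which 192 of 192 members matched by symbol; Jchain is listed as Igj, and mitochondrial genes were taken by RefSeq chromosome. Members and gene lists were chosen with earlier results of these data known. Named genes are all constant and lambda genes, the 10 heavy and 10 kappa segments with the highest mean share, the joining genes, the 4 tested members with the smallest p in each direction, those at 0 in both libraries of 1 group and at 10 counts or more in each library of the other, and up to 4 per list; others were chosen after their values were seen. Some genes of the lists are not reported here.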

Additional observations from a re-analysis of the deposited data

How the results depend on the processing

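A count of 0 allows a level of up to 0.191 to 0.284 CPM, and of the 171 variable segments 21 and 32 were at 0 in KO libraries and 5 and 38 in WT libraries. The count of LSK members called, 0 in the edgeR fit, was 0 with RLE factors, with library totals, without the immunoglobulin genes in the normalization and with no filter. It was 5 with DESeq2, among 15 genes called in all. Leaving out 1 library at a time it ran from 0 (without the second KO library, of 0 genes called) to 66 (without the second WT library, 5 higher and 61 lower in KO, of 830 genes called). It was 11 without the first WT library (10 higher and 1 lower, of 36) and 4 without the first KO library (3 higher and 1 lower, of 5). The replicate block gave 9 calls among members (5 higher and 4 lower), of 15 genes called out of 14598, with Ighg1 called at a log2 fold change of -5.53, and a log2 fold change of 0.036 for Iglc2; same-numbered libraries had deviations correlated at -0.069 (LSK) and 0.12 (KU812), so the numbers were not shown to pair. For KU812 the count was 0, from 0 to 1 with a library left out.

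The log2 ratio of shares ran, with 1 library left out, from -1.29 to 0.89 (all immunoglobulin genes), -1.26 to 0.91 (heavy), -1.35 to 0.88 (kappa), -1.46 to 0.13 (lambda, 0.081 without the first WT library), -1.36 to 0.89 (constant), -1.09 to 0.89 (variable) and -1.05 to 0.94 (joining). Apart from lambda, each upper end is the value without the first WT library. The denominator without mitochondrial genes and Rn18s-rs5, the TMM-scaled library size and the replicate block kept each direction; so did, for all immunoglobulin genes, heavy, kappa and lambda, the locus-wide entries, added after seeing the data. Log2 fold changes ran from -2.15 to 1.53 (Ighg2b), -1.44 to 1.11 (Ighg2c), -2.43 to 0.24 (Ighg3), -1.34 to 0.89 (Ighm), -1.63 to 0.77 (Igkc), -0.62 to 0.86 (Iglc2) and -2.22 to 0.39 (Iglc3). In all, 8 of 58 such gene values with a library left out changed sign, 6 of them without the first WT library. With a minimum of 10 counts in place of 3, 30 heavy segments were seen in the second WT library in place of 56. The cause was not tested for any of these.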
